A study of Mus musculus with 11 samples.

Results

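Glycolysis turns glucose into pyruvate, and 10 genes for enzymes of its core were followed here through 4 h of low oxygen: Gpi1, Pfkl, Pfkm, Pfkp, Aldoa, Aldoc, Tpi1, Eno1, Eno2 and Pkm. They were chosen by symbol from the 48709 Ensembl gene IDs of the count tables, and each symbol had exactly 1 row. RNA came from primary mouse hippocampal neurons, which are cells taken from the hippocampus and grown for 10 days at 20% oxygen. In the control group (6 libraries) the cells stayed at 20% oxygen. In the hypoxia group (5 libraries) they were moved to 1% oxygen for 4 h in a hypoxia workstation, with controls from the same isolation. The labels give no mouse strain, age or sex and name no allele or drug in either group, and they do not say whether libraries of a group are separate dishes or isolations, so p-values measure the spread between libraries, which may in part be technical.

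Each library held between 1.66e+07 (control 1) and 3.19e+07 (hypoxia 5) counted reads, and the group means did not separate (exact permutation p = 0.801, 2-sided). Levels are given as CPM, read counts brought to a common library size, with sizes scaled by edgeR's TMM method. The neuron label was met by its markers: the dendritic protein gene Map2 averaged 2480 ± 102 CPM in control against 2500 ± 168 CPM after hypoxia (SD, n = 6 and 5), the synaptic gene Snap25 at 799 ± 42.7 and 800 ± 51.9 CPM and the nuclear gene Rbfox3 at 103 ± 17.0 and 99.4 ± 6.82 CPM. The cultures also held astrocyte transcripts, among them Slc1a2 at 1630 ± 62.1 and 1700 ± 62.7 CPM, Slc1a3 at 652 ± 18.4 and 668 ± 34.1 CPM, Gfap at 623 ± 50.0 and 566 ± 43.0 CPM and Aqp4 at 132 ± 12.4 and 115 ± 7.78 CPM. Of 8 oligodendrocyte lineage markers 3 were lower in hypoxia (Olig1, Olig2 and Mog), against 12.8% of all genes tested (edgeR adjusted p under 0.05). The summed level of the 8 ran from 114 to 160 CPM in control and from 94.5 to 125 CPM in hypoxia. Summed microglial, vascular and fibroblast markers were at most 19.2, 7.76 and 310.0 CPM in a library. Of these markers 6 of 8, 3 of 6 and 5 of 5 had enough counts to be tested, and none of those was called. In such bulk RNA, fewer cells of a type and less RNA per cell cannot be told apart.

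Glucose that has entered the cell and been phosphorylated is isomerised by glucose phosphate isomerase (Gpi1). Phosphofructokinase then adds a further phosphate in the committed, allosterically controlled step, aldolase splits the sugar, triose phosphate isomerase (Tpi1) interconverts the products, enolase makes phosphoenolpyruvate and pyruvate kinase (Pkm) yields ATP and pyruvate. Phosphofructokinase, aldolase and enolase each have several genes: Pfkl, Pfkm and Pfkp are named for liver, muscle and platelet, Aldoc and Eno2 are the brain aldolase and the neuron-specific enolase, and Aldoa and Eno1 are the forms found in most tissues. In brain, Aldoc is abundant in astrocytes and in some neurons. Many glycolytic genes are known targets of the hypoxia-inducible factor HIF, which is stabilised when oxygen is low.

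After 4 h at low oxygen, 7 of the 10 genes rose and none fell (edgeR quasi-likelihood test, Benjamini-Hochberg adjusted p under 0.05 over 16235 genes). Of all genes tested, 10.1% were higher and 12.8% lower by the same rule. At an unadjusted p under 0.05, and with DESeq2, the number of enzymes called lower was also 0. Eno1 had the largest fold change at 1.42, Pfkl, Aldoa, Gpi1 and Tpi1 lay between 1.23 and 1.27, and Pkm and Eno2 were at 1.15 and 1.13. Pfkm, Pfkp and Aldoc did not pass. The median log2 fold change was 0.25 over the 10 genes and -0.02 over all genes tested. In 4 of the 10 (Aldoa, Tpi1, Eno1 and Pkm) every hypoxia library lay above every control library, which was the case for 6.72% of all genes. No enzyme lay wholly lower in hypoxia, a pattern seen in 7.26% of all genes. The transcripts of the 10 genes together made up 0.405 ± 0.0281% of all counts in control and 0.463 ± 0.0378% in hypoxia. The authors' deposited table of genes higher in hypoxia lists the same 7 members, with log2 fold changes from 0.21 for Eno2 to 0.56 for Eno1, and their table of lower genes lists none.

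**Figure D1:**
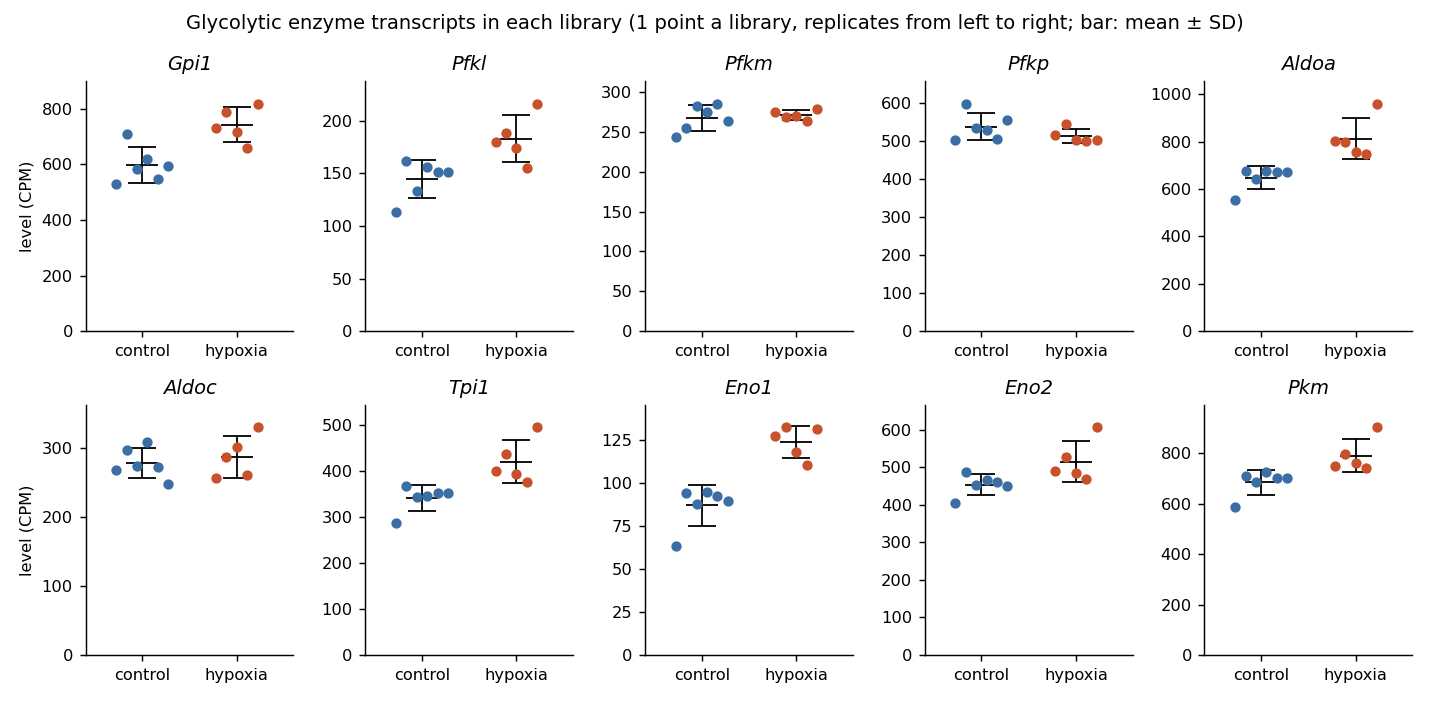
Level in CPM (vertical axis, from 0) of each of the 10 enzymes in the 6 control (blue) and 5 hypoxia (red) libraries, 1 point per library, with the group mean ± SD as a black bar. For Aldoa, Tpi1, Eno1 and Pkm all hypoxia points lie above all control points, and the groups overlap for Gpi1, Pfkl, Pfkm, Pfkp, Aldoc and Eno2.

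A pair of libraries stood apart. Control 1, the library of fewest counts, was the lowest control for 9 of the 10 enzymes, and hypoxia 5, that of most counts, was the highest hypoxia library for 8. Hypoxia 4 was the lowest hypoxia library for 9. The median enzyme lay 0.20 below the control mean on the log2 scale in control 1 (-0.20), and in the other controls from 0.00 to 0.11 around it. The same median was 0.44 in hypoxia 5 and 0.12 to 0.26 in the other hypoxia libraries. The part of depth in these differences was not tested. Without control 1 and hypoxia 5, 6 of the 10 enzymes were still called higher and none lower. In that fit 2037 of 16297 genes were called higher and 2310 lower. With the lowest control and the highest hypoxia library of most enzymes left out, fold changes had to be smaller. The log2 value was 0.41 for Eno1, 0.25 for Gpi1, 0.22 for Pfkl and Aldoa, 0.19 for Tpi1 and 0.12 for Pkm. The call of Eno2 was lost (log2 fold change 0.09, adjusted p = 0.0949).

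**Figure D2:**
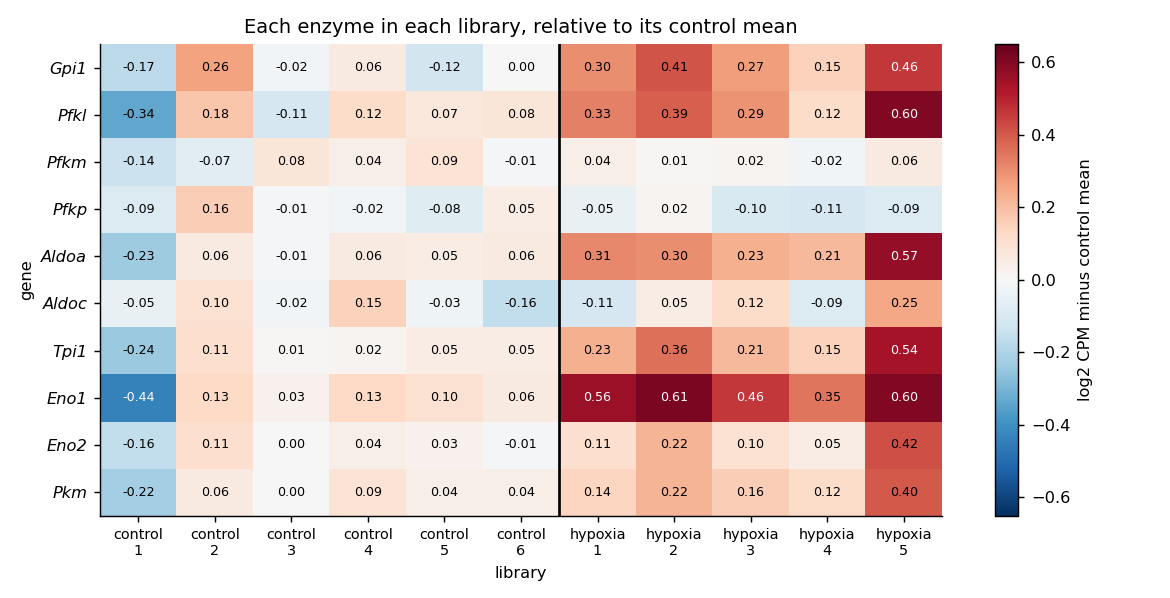
Difference of each enzyme's log2 CPM from its own control mean, with genes in rows, libraries in columns (controls to the left of the black line) and the value printed in each cell. Eno1 is positive in all hypoxia libraries, from 0.35 to 0.61, control 1 is negative for every enzyme, and hypoxia 5 is the strongest column for most.

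Gpi1 (ENSMUSG00000036427, GRCm38 chromosome 7, 34201330 to 34230336, minus strand) encodes the isomerase that makes fructose phosphate from glucose phosphate. Its control libraries ran from 528 to 711 CPM with a median of 590, and the hypoxia libraries stood at 732, 789, 716, 660 and 818 CPM. The groups overlapped through control 2 at 711 CPM, above hypoxia 4. Gpi1 rose from 597 ± 64.7 to 743 ± 62.4 CPM (log2 fold change 0.31, SE 0.07, edgeR adjusted p = 0.00338).

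The phosphofructokinase genes did not move together. Pfkl (ENSMUSG00000020277, chromosome 10, 77986947 to 78010083, minus strand), the liver-type subunit, ran from 113 to 162 CPM in control with a median of 151, and stood at 180, 188, 174, 155 and 216 CPM in hypoxia. Only hypoxia 4, at 155 CPM, fell within the control range. Pfkl rose from 144 ± 18.2 to 183 ± 22.2 CPM (log2 fold change 0.34, SE 0.09, edgeR adjusted p = 0.00896). Pfkm (ENSMUSG00000033065, chromosome 15, 98092589 to 98132451, plus strand), the muscle-type subunit, ran from 243 to 285 CPM in control with a median of 270 and stood at 275, 268, 270, 263 and 278 CPM in hypoxia, all within the control range. Its log2 fold change was 0.02 (95% confidence interval -0.07 to 0.10, edgeR adjusted p = 0.804), an interval that does not reach the value of Pfkl. Pfkp (ENSMUSG00000021196, chromosome 13, 6579768 to 6648777, minus strand), the platelet-type subunit, ran from 502 to 597 CPM in control with a median of 530 and stood at 516, 543, 501, 498 and 503 CPM in hypoxia. The groups overlapped, and its log2 fold change was -0.07 (95% confidence interval -0.16 to 0.03, edgeR adjusted p = 0.299).

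Isoforms of a step were compared by the log2 ratio of their counts within each library, a quantity that library size and scaling cannot change. Its absolute value is not a ratio of mRNA molecules, since the genes differ in length. The difference between groups was tested for 5 ratios with an exact permutation test over the libraries (2-sided, smallest p the design allows 0.00216, adjusted over the 5). The log2 ratio of Pfkl to Pfkp was -1.90 ± 0.15 in control and -1.49 ± 0.17 in hypoxia, higher by 0.41 with no overlap between the groups (exact permutation adjusted p = 0.00541). That of Pfkl to Pfkm was -0.90 ± 0.18 and -0.58 ± 0.15, higher by 0.32 with overlapping groups (exact permutation adjusted p = 0.0135). The Pfkp to Pfkm ratio, at 1.00 ± 0.14 and 0.92 ± 0.06, did not pass (difference -0.09, exact permutation adjusted p = 0.242). Pfkl thus gained counts relative to each of the other subunits, by 1.33-fold against Pfkp and 1.25-fold against Pfkm. Without control 1 and hypoxia 5 the differences of Pfkl against Pfkp and Pfkm were 0.29 and 0.23 (exact permutation adjusted p = 0.0198 and 0.0496). The Pfkl to Pfkm call was lost when group medians replaced means (difference 0.26, exact permutation adjusted p = 0.0649).

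**Figure D3:**
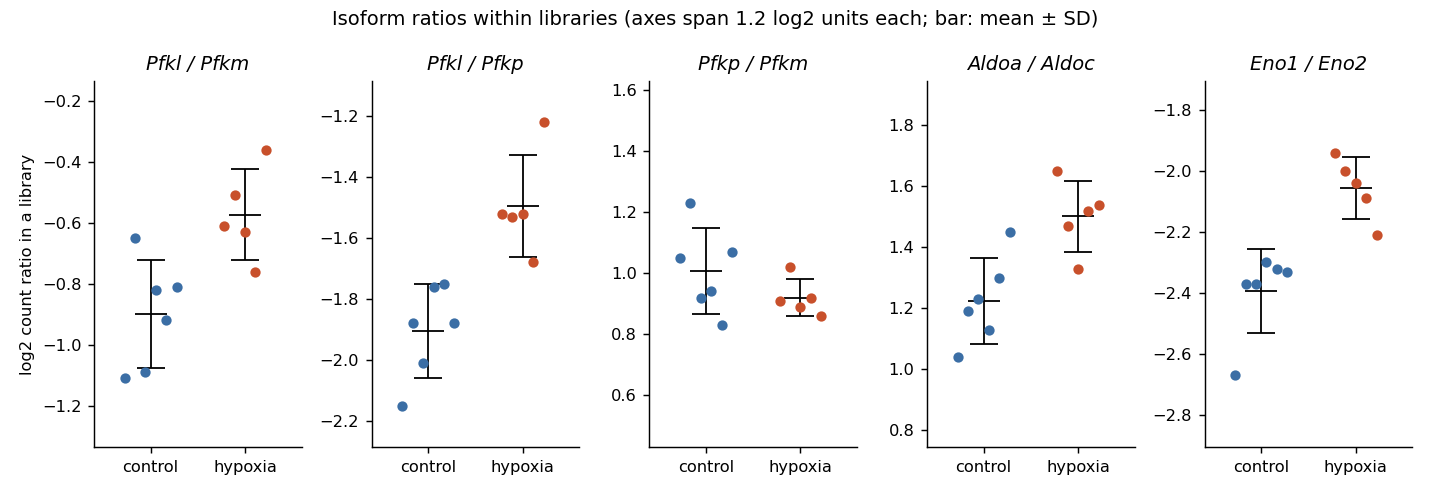
Log2 ratio of the counts of 2 isoforms of 1 step in each library (vertical axis, each panel spanning 1.2 units, not from 0), for 6 control (blue) and 5 hypoxia (red) libraries with mean ± SD. The groups do not overlap for Pfkl to Pfkp and for Eno1 to Eno2, and the mean of Pfkp to Pfkm differs by -0.09.

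The start regions of these genes are shown because the subunits differ in response and because HIF is known to bind a DNA core spelled ACGTG or GCGTG. Both spellings were searched on both strands in the 250 bases before each RefSeq start, and in genes with several starts the start nearest the principal mRNA was used. A CACGTG box holds ACGTG on each strand and so counts for both. Of 32851 RefSeq promoters of this length, 16.6% held ACGTG, 28.2% GCGTG and 38.6% either. Below, capitals mark a match as read in the gene's own direction (CACGT and CACGC are matches on the opposite strand), bases in annotated exons are left out, and the build is GRCm38.p6.
Pfkl, chr10:78009808-78010004, minus strand: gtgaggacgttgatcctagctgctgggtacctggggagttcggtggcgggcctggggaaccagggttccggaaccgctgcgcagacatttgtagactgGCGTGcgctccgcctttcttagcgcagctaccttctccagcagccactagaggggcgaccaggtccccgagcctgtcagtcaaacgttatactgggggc
Pfkm, chr15:98108221-98108465, plus strand: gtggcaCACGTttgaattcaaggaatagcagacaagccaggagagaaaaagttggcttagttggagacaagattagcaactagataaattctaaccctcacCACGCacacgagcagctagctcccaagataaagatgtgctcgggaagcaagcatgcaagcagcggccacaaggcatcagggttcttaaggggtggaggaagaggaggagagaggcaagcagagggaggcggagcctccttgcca
Pfkp, chr13:6648778-6649021, minus strand: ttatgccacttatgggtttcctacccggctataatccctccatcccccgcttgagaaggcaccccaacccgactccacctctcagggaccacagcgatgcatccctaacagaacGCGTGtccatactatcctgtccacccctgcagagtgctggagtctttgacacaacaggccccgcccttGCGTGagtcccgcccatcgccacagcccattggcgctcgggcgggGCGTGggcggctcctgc
Pfkl, which rose, held 1 match, which starts 99 bases before the RefSeq start. Pfkp, which was not called, held 3, at 136, 68 and 23 bases before it. Pfkm held 2, at 244 and 149 bases. Over the 10 enzymes, 3 of the 7 genes that rose and 3 of the 3 that did not pass had a match in this window, and the difference was not tested. Gpi1, Tpi1, Eno2 and Pkm had none there. These counts take the whole window, exon bases included. Annotated exons covered 208 of the 250 bases for Pkm, 167 for Gpi1, 138 for Tpi1, 105 for Aldoc and 61 for Eno2. The Aldoc match lies in an annotated exon. With every RefSeq start of a gene counted, 7 of the 10 had a match, since Pkm held an ACGTG 75 bases before another of its starts. A match is a string of letters and not evidence of binding, and a site outside the window would not be seen.

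The aldolase genes also parted. Aldoa (ENSMUSG00000030695, chromosome 7, 126795234 to 126800751, minus strand), the widely expressed aldolase, ran from 552 to 676 CPM in control with a median of 672. It stood at 803, 798, 756, 748 and 960 CPM in hypoxia, every library above every control. Aldoa rose from 648 ± 48.8 to 813 ± 85.6 CPM (log2 fold change 0.33, SE 0.06, edgeR adjusted p = 0.00155). Aldoc (ENSMUSG00000017390, chromosome 11, 78322968 to 78327781, plus strand), the brain aldolase, ran from 247 to 308 CPM in control with a median of 273 and stood at 256, 287, 301, 260 and 329 CPM in hypoxia. Its groups overlapped, with a log2 fold change of 0.05 (95% confidence interval -0.09 to 0.19, edgeR adjusted p = 0.649), and without hypoxia 5 the value was -0.00355. The log2 count ratio of Aldoa to Aldoc ran from 1.04 to 1.45 in control and stood at 1.65, 1.47, 1.33, 1.52 and 1.54 in hypoxia. It rose by 0.28, from a count ratio of 2.34 to 2.83 (exact permutation adjusted p = 0.0135). The groups overlapped through control 6 at 1.45. Without control 1 and hypoxia 5 the difference was 0.23 (exact permutation adjusted p = 0.0496). As Aldoc is also an astrocyte gene, the 12 astrocyte markers were read beside it. Of 11 tested, Aqp4 was lower (log2 fold change -0.20, edgeR adjusted p = 0.0269) and none was higher. Of all genes tested, 12.8% were lower and 10.1% higher, so these counts show nothing particular to astrocytes. The summed marker level ran from 3250 to 3590 CPM in control and from 3260 to 3530 in hypoxia. None of the 12 was at 0 in all libraries. Their part in the level of Aldoc was not tested.

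The start region of Aldoa nearest its principal mRNA lies inside the gene and is shown as that of the aldolase that rose. Its match, ACGTG on the opposite strand, starts 126 bases before the start.
Aldoa, chr7:126799255-126799504, minus strand: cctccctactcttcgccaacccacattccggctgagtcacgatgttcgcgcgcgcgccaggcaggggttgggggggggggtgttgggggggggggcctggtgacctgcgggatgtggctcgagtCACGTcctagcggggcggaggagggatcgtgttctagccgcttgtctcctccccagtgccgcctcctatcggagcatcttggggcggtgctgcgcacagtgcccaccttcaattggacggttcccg
The start of Aldoc held 1 GCGTG, 50 bases before the RefSeq start and within an annotated exon, so it is not shown.

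Tpi1 (ENSMUSG00000023456, chromosome 6, 124810586 to 124814296, minus strand), which interconverts the triose phosphates, ran from 288 to 368 CPM in control with a median of 349. In hypoxia it stood at 400, 438, 393, 377 and 495 CPM, with no overlap. Tpi1 rose from 342 ± 27.8 to 420 ± 47.2 CPM (log2 fold change 0.30, SE 0.07, edgeR adjusted p = 0.00471).

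Enolase showed the largest single change and a shift between its isoforms. Eno1 (ENSMUSG00000063524, chromosome 4, 150236721 to 150248879, plus strand), the widely expressed enolase, ran from 63.4 to 94.3 CPM in control with a median of 90.9 and stood at 127, 132, 118, 110 and 131 CPM in hypoxia, clear of all controls. It rose from 86.9 ± 11.8 to 124 ± 9.35 CPM (log2 fold change 0.50, SE 0.08, edgeR adjusted p = 0.000339). Eno2 (ENSMUSG00000004267, chromosome 6, 124760053 to 124769673, minus strand), the neuron-specific enolase, ran from 405 to 487 CPM in control with a median of 457 and stood at 489, 527, 485, 468 and 606 CPM in hypoxia. It rose from 454 ± 27.3 to 515 ± 55.0 CPM (log2 fold change 0.18, SE 0.06, edgeR adjusted p = 0.0378). The groups overlapped, and the Eno2 call was lost without any one of control 3, control 6, hypoxia 2 or hypoxia 5, at an adjusted p of up to 0.0812. The log2 count ratio of Eno1 to Eno2 rose from -2.40 ± 0.14 to -2.06 ± 0.10, a difference of 0.34 with no overlap (exact permutation adjusted p = 0.00541). Control 1 was low in this ratio too, at -2.67 against -2.37 to -2.30 in the other controls, and without control 1 and hypoxia 5 the difference was 0.32 (exact permutation adjusted p = 0.0198). Of 12 neuron markers, Neurod6 was higher (log2 fold change 0.13, edgeR adjusted p = 0.0188) and none lower, against 10.1% and 12.8% of all genes tested. The summed level of the 12 was 10400 to 11100 CPM in control and 10600 to 11000 in hypoxia.

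The level of Eno1 is uncertain, because most of its mRNA has near-identical copies elsewhere in the genome. Of the 50-base windows of its principal mRNA, the length of the reads, 72.2% also occurred in an annotated transcript of another gene, and 70.5% occurred in Eno1b, a further enolase gene. How the authors' counting treated reads that match several places is not given in the sources used here. Eno1b itself was higher in hypoxia, from 15.8 to 20.6 CPM (log2 fold change 0.37, edgeR adjusted p = 0.0308), as was the processed pseudogene Gm5855, at 16.9 and 21.7 CPM (log2 fold change 0.36, adjusted p = 0.0184). The processed pseudogene Gm4735, in which 52.8% of the windows occurred, had only 0 to 1 counts in a library. Reads that match both Eno1 and Gm4735 were thus not counted in Gm4735. The Eno1b and Gm5855 rows may still hold reads of Eno1, and the locus behind each rise was not tested. The corresponding share of windows was 34.4% for Pkm, 25.3% for Gpi1, 17.1% for Pfkp, all of it in the overlapping gene Pitrm1, 13.9% for Aldoa and 7.51% for Tpi1. It was 0.255% for Eno2 and 0.0543% for Pfkl, and 0 for Pfkm and Aldoc. The start region of Eno1 is shown for comparison with that of Aldoa. It held 1 GCGTG, 230 bases before the RefSeq start, which lies 244 bases from the start of the principal mRNA. Another RefSeq start, 245 bases from it, held 2, at 86 and 62 bases. Most of that window lies in annotated exons, and it is not shown.
Eno1, chr4:150236458-150236707, plus strand: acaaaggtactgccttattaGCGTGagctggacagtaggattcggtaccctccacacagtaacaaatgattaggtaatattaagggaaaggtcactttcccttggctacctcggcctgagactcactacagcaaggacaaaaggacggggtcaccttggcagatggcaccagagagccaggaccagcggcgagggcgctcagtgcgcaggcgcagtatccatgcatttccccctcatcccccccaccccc

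Pkm (ENSMUSG00000032294, chromosome 9, 59656368 to 59679375, plus strand) encodes pyruvate kinase, whose muscle forms are made by alternative splicing of 1 gene and are not separated by counts per gene. Its control libraries ran from 587 to 726 CPM with a median of 701, and the hypoxia libraries stood at 752, 798, 763, 741 and 903 CPM, above all controls. Pkm rose from 685 ± 49.8 to 791 ± 65.8 CPM (log2 fold change 0.21, SE 0.06, edgeR adjusted p = 0.0154).

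Levels of different enzymes can be set side by side only per length. With the joined exons of GENCODE M21 as the length, the order in control was Aldoa at 223 ± 16.8 CPM per kb, Pkm at 137 ± 9.96, Tpi1 at 124 ± 10.1, Eno2 at 96.4 ± 5.80, Gpi1 at 92.6 ± 10.0, Aldoc at 85.0 ± 6.66, Pfkm at 80.1 ± 4.91, Pfkp at 40.0 ± 2.65, Pfkl at 21.6 ± 2.72 and Eno1 at 16.2 ± 2.19. The neighbours Eno2 and Gpi1, Gpi1 and Aldoc, and Aldoc and Pfkm differed by less than the SD of at least 1 of the pair. In hypoxia the ends of the order were Aldoa at 279 ± 29.4 and Eno1 at 23.0 ± 1.74 CPM per kb. Joined exons include rarely used ones, and Pfkp has 13401 bases of them against 4145 in its principal mRNA. Another length counted only those 50-base windows of the principal mRNA that match no other gene. It holds only if all counts of a gene came from those windows, which was not tested. By that length Aldoa (515 CPM per kb in control) and Pkm (439) still led, and Pfkl was last at 39.2. Eno1 moved up to 158, level with Pfkp at 158 and close to Eno2 at 166.

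Within a step, the shares of the level per length also moved with that choice. With joined exons, Pfkm made up 56.5 ± 2.30% of phosphofructokinase in control and 55.3 ± 1.15% in hypoxia, Pfkp 28.3 ± 1.75% and 26.1 ± 1.00%, and Pfkl 15.2 ± 1.35% and 18.6 ± 1.62%. With unmatched windows Pfkp was the largest, at 54.2% in control, and Pfkm stood at 32.4%, so the order of Pfkm and Pfkp is not settled by these counts. Pfkl had the smallest share under each of the 3 lengths tried. Aldoa made up 72.3 ± 1.92% of aldolase in control and 76.0 ± 1.48% in hypoxia, and Aldoa was the larger under all 3 lengths. Eno2 made up 85.7 ± 1.12% of enolase in control and 82.6 ± 1.01% in hypoxia with joined exons, but 51.4% and 45.5% with unmatched windows.

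**Figure D4:**
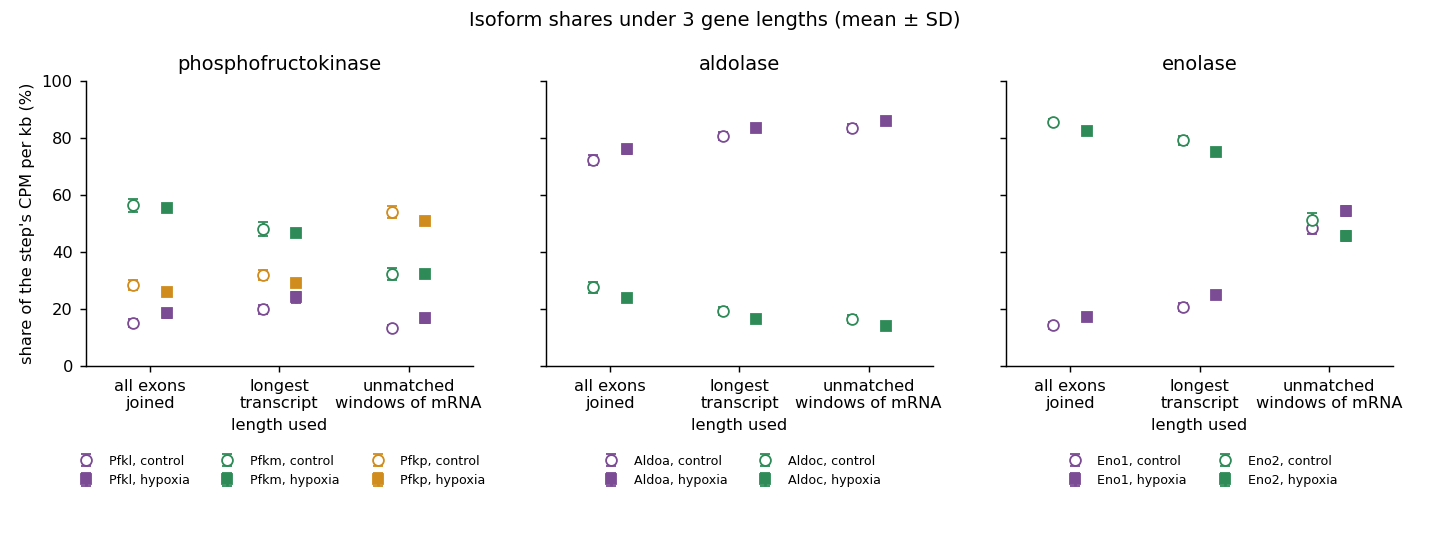
Share of each isoform in its step's summed CPM per kb (vertical axis, percent, mean ± SD) under 3 gene lengths, with open circles for the 6 control and filled squares for the 5 hypoxia libraries. The shares of Pfkl, Aldoa and Eno1 are higher in hypoxia under each length. That direction follows from the count ratios, because a gene's length is the same in both groups, so the lengths do not test it. The order of Pfkm and Pfkp and the size of the Eno1 share change with the length.

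Among 28 other genes of glucose uptake, glycolysis and lactate export, a list chosen with earlier results of these data known, 24 passed the filter on low counts. Of these, 11 rose and 2 fell, where 10.1% of all genes tested were higher and 12.8% lower. The median log2 fold change of the 24 was 0.18. Hexokinase 2 (Hk2), which phosphorylates glucose on entry, rose most, from 25.4 to 86.7 CPM (log2 fold change 1.76, SE 0.22, edgeR adjusted p = 3.88e-05), followed by the glucose transporter gene Slc2a1 (1.55) and by Pfkfb3 (1.26), whose product makes an activator of phosphofructokinase. Each of these fold changes was larger than that of any of the 10 core enzymes. Pfkfb2 and Pfkfb4 fell, by 0.16 and 0.24 on the log2 scale. The missing steps of the core have genes with low and uncertain counts: Gapdh was at 13.2 ± 1.78 and 18.5 ± 1.01 CPM, Pgk1 at 25.7 ± 3.20 and 32.2 ± 4.80 CPM and Pgam1 at 10.7 ± 1.33 and 14.3 ± 1.37 CPM in control and hypoxia, and all 3 rose. Of the 50-base windows of their principal mRNAs, 82.5%, 68.0% and 41.5% also occurred in another gene. The further enolase genes Eno3 and Eno4 were at 3.27 ± 0.270 and 1.63 ± 0.272 CPM in control and did not pass. Pklr, the liver and red cell pyruvate kinase gene, had 1 to 9 counts in a library and was not tested.

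**Figure D5:**
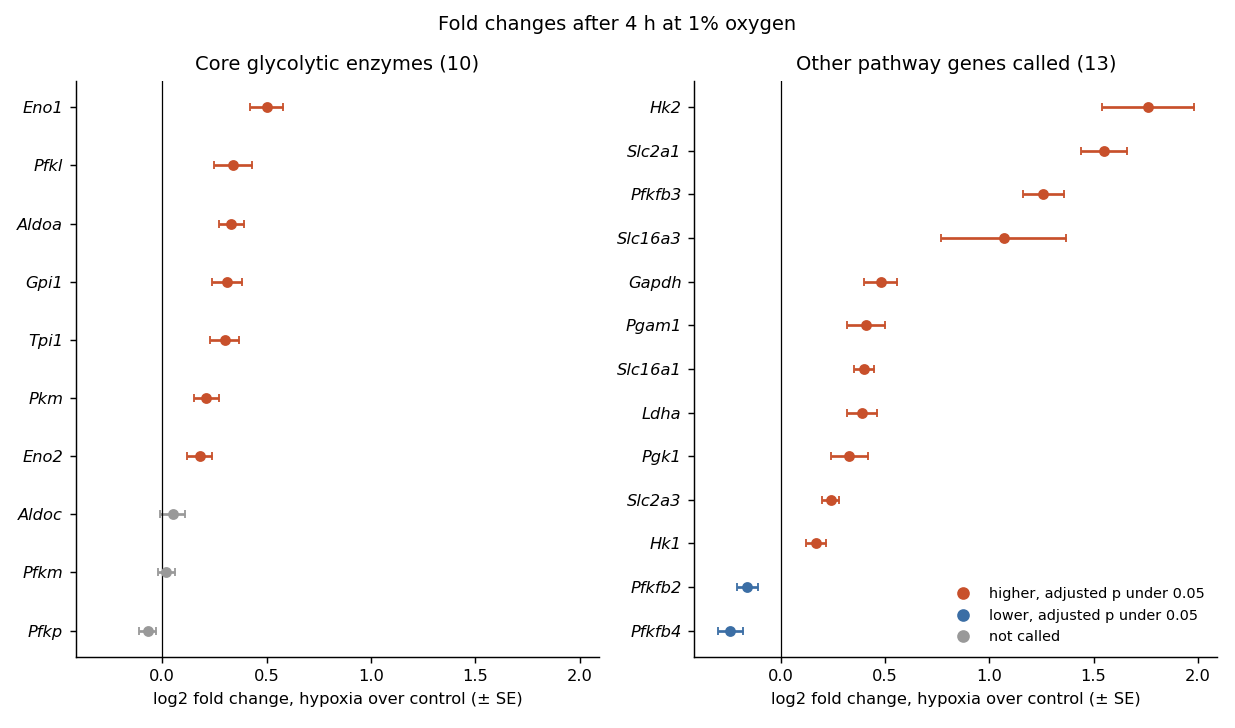
Log2 fold change of hypoxia over control (horizontal axis, ± SE) of the 10 core enzymes (left) and of the other pathway genes that were called, 11 higher and 2 lower (right), red where higher, blue where lower and grey where not called. The enzymes lie between -0.07 (Pfkp) and 0.50 (Eno1), whereas Hk2, Slc2a1, Pfkfb3 and Slc16a3 lie to the right of all of them, from 1.07 to 1.76.

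The enzymes that rose also varied together within the groups. Deviations of log2 CPM from the group mean correlated between the 21 pairs of called enzymes with a median r of 0.88 (range 0.68 to 0.97, n = 11 libraries), and between the 24 pairs with Pfkm, Pfkp or Aldoc with a median of 0.50 (range -0.17 to 0.81). These points share library and depth, control 1 and hypoxia 5 are among them, and the values are a description. Outside the 10 genes and at 5 CPM or more, those most like the mean standardised profile of the enzymes over the 11 libraries were Fads1, a fatty acid desaturase gene (r = 0.952), Ldha, the lactate dehydrogenase gene (0.946), 5730409E04Rik (0.945), Rasd2, a Ras-like GTPase gene (0.943) and Smtnl2 (0.939). Within the groups these had r from 0.90 to 0.95. Ldha rose from 553 ± 51.3 to 725 ± 91.4 CPM (log2 fold change 0.39, edgeR adjusted p = 0.00131). For Eno2 the most alike were 5730409E04Rik (0.964), Ldha (0.953) and Rasd2 (0.952). Aldoc had other neighbours, Tceal6 (0.890), Hapln4 (0.889) and the synaptotagmin gene Syt17 (0.888), none of which was called. Rasd2 was not called either (log2 fold change 0.3, edgeR adjusted p = 0.0969).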

How the data were processed

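Polyadenylated RNA of 11 libraries was prepared with an unstranded TruSeq kit (v2) and sequenced as single 50-base reads, per the labels' protocols. For each library the authors deposited a table of raw counts, keyed by Ensembl gene ID. STAR 2.5.2b, Subread 1.5.1 with featureCounts, FastQC 0.11.5, DESeq2 and the mouse build mm10 (GRCm38) are named, with no role, in the submitters' processing notes. Which annotation release was counted, and how multi-mapping reads were treated, is not given in the sources used here. The authors also deposited 2 tables with log2 fold changes, adjusted p-values and a normalized signal, per the file headers. The signal was not used.

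Symbols matched 48349 of 48709 IDs. Genes were filtered with filterByExpr and tested with edgeR 4.0.16 (R 4.3.3; TMM, glmQLFit, glmQLFTest, no covariate). The SE is the log2 fold change over the square root of F. All genes were fitted and adjusted together, and the fit was tested on simulated data. Each of the 10 genes had at least 1061 counts in a library, so the spread between libraries, more than counting error, set the precision. Isoform ratios, promoter matches and shared windows were computed in Python 3.11.15 with the GENCODE M21 and RefSeq GRCm38.p6 tables. The 10 genes and the lists were chosen with earlier results of these data known. The text names all 10 genes, the 3 called pathway genes of largest change, Gapdh, Pgk1, Pgam1, listed markers and the genes most alike. Other names were added after values were seen. DESeq2 1.42.0, other scalings, no filter, a replicate block and leaving out each library were tried as alternatives.

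The replicate numbers of the titles were not used to pair libraries in the main fit. Of 5 same-numbered pairs, 2 had a correlation of deviations over 0.1 (range -0.103 to 0.306). So few pairs cannot show whether the libraries are paired.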

Additional observations from a re-analysis of the deposited data

Results flagged for a closer look

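Dixon's test was applied to 30 groups of values (10 enzymes and 5 ratios in each condition). In 6 of them a library lay far from the rest of its group. Chance would flag about 1 in 20 independent groups. These groups share libraries, and the called enzymes varied together, so the 6 flags cannot be set against that rate. Control 1 was low for Aldoa at 552 CPM (other controls 641 to 676), for Tpi1 at 288 CPM (343 to 368), for Eno1 at 63.4 CPM (87.8 to 94.3) and for Pkm at 587 CPM (686 to 726). Control 1 was also low in the log2 count ratio of Eno1 to Eno2, at -2.67 (-2.37 to -2.30 in the other controls). Hypoxia 5 was high for Aldoa at 960 CPM (other hypoxia libraries 748 to 803). These are 1 library on each side of the comparison, each at an end of the range of total counts, and the part of depth was not tested.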

How the results depend on the processing

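The calls of Gpi1, Pfkl, Aldoa, Tpi1, Eno1 and Pkm held under all 18 alternatives, including DESeq2, and so did the ratio calls of Pfkl to Pfkp, Aldoa to Aldoc and Eno1 to Eno2 under all 14 of theirs. Eno2 was lost with library size only (log2 fold change 0.17, adjusted p = 0.0541) and without control 1 and hypoxia 5 together (0.09), and leaving out 1 library gave 0.12 to 0.21 with an adjusted p from 0.0228 to 0.0812. Near 0 the sign was unsettled: Pfkm was at -0.01 without both of these libraries, and Aldoc at -0.01 without both and -0.00355 without hypoxia 5, with a range of -0.00355 to 0.09 when 1 library was left out. The Pfkl to Pfkm ratio was lost with group medians (0.26). With the replicate number as a block, 7 enzymes were called higher, the same count as without it, and 2 of 5 controls and 2 of 5 hypoxia libraries correlated best with their own number. The count of other pathway genes called lower ran from 1 to 3 when 1 library was left out and was 1 without both. The length used moved all shares. With the longest transcript they were, in control and hypoxia, 19.9% and 24.2% for Pfkl, 48.1% and 46.6% for Pfkm, 32.0% and 29.2% for Pfkp, 80.7% and 83.6% for Aldoa, 19.3% and 16.4% for Aldoc, 20.8% and 24.9% for Eno1, and 79.2% and 75.1% for Eno2. With unmatched windows, chosen after seeing the data, they were 13.4% and 16.8%, 32.4% and 32.3%, 54.2% and 50.9%, 83.5% and 86.0%, 16.5% and 14.0%, 48.6% and 54.5%, and 51.4% and 45.5% in the same order. Leaving out libraries 1 at a time moved no share by as much as its SD. Leaving out control 1 and hypoxia 5 together was also chosen after seeing the data.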
